A study of Homo sapiens with 4 samples.

Results

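The mRNAs of the hnRNP and SR splicing factors were followed through an RNA immunoprecipitation sequencing (RIP-seq) experiment on PHGDH, the enzyme of the first committed step of serine synthesis. Members were the gene symbols that begin with HNRNP, or with SRSF and a number, after pseudogene symbols and antisense or divergent-transcript symbols were dropped. This gave 39 of the 44715 symbols listed, 27 in the HNRNP family and 12 in the SRSF family. Of these, 30 reached the level needed for testing, which was at least 5 CPM (reads of a gene scaled to a fixed library total) in at least 2 of the 4 libraries. They were 18 HNRNP members and all 12 SRSF members, and each of the 30 was at 5 CPM or more in both anti-PHGDH 2 and IgG 2.

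The libraries came from HEK293T, a cell line derived from embryonic kidney and transformed with viral genes. The cells carried no engineered change named in the labels and were lysed natively, with no crosslinking named. The recovered RNA was turned into cDNA and amplified with a low-input kit before fragmentation. RNA was recovered with an anti-PHGDH antibody (libraries anti-PHGDH 1 and anti-PHGDH 2) or with a control anti-IgG antibody (IgG 1 and IgG 2), described as 2 biological replicates of each pulldown. The comparison asks which RNAs are recovered with the PHGDH protein beyond what a control antibody recovers. No input library was analysed here, so the level of each mRNA in the lysate is not known from these data.

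hnRNP proteins coat nascent transcripts in the nucleus, and many of them repress the use of nearby splice sites. SR proteins carry RNA recognition motifs and a domain rich in arginine-serine dipeptides, bind exonic enhancers and promote exon use. The families often act against each other on the same exon. Many genes of both families limit their own output through exons that send the mRNA to decay, and values per gene do not separate such isoforms.

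The libraries held from 1216477 (anti-PHGDH 2) to 3875746 (IgG 1) reads assigned to genes. IgG 1 listed 4148 genes above 0, against 14518 to 16767 in the other libraries. IgG 1 was at 0 for 5895 of the 9524 genes that were tested (61.9%). The mitochondrial genome accounted for 28.8% of the anti-PHGDH 1 reads and for 3.37 to 8.69% elsewhere, and this lowers the CPM of all other genes in anti-PHGDH 1. Of the line's markers, VIM, NEFL and NEFM were at 50.0 CPM or more in every library, while PAX2 stayed below 2 CPM. Of 8 markers of other cell types, COL1A1 was the highest, at 12.3 CPM or less, and PTPRC, COL1A2, HBB and PECAM1 were at 0 in every library.

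Taken as families, both sets of mRNAs were most abundant in IgG 1, and their mean was higher with IgG than with anti-PHGDH. HNRNP members took 0.216% of the reads of anti-PHGDH 1 (95% Wilson interval 0.211 to 0.221%) and 0.418% of those of anti-PHGDH 2 (0.407 to 0.429%). They took 1.51% in IgG 1 (1.501 to 1.525%) and 0.393% in IgG 2 (0.383 to 0.403%). The HNRNP share was thus nearly level in the libraries numbered 2, lower in anti-PHGDH 1 and several times higher in IgG 1. SRSF members took 0.138% (0.134 to 0.142%) and 0.144% (0.138 to 0.151%) in anti-PHGDH 1 and 2. They took 0.609% (0.601 to 0.617%) in IgG 1 and 0.148% (0.142 to 0.154%) in IgG 2. Here 3 of the 4 libraries were close to each other and IgG 1 alone stood apart. These intervals cover counting error only. The closeness depended on the mitochondrial share of anti-PHGDH 1. With CPM recomputed without the mitochondrially encoded genes, SRSF members summed to 1939 and 1579 CPM in anti-PHGDH 1 and 2. They then summed to 6334 and 1533 CPM in IgG 1 and 2. HNRNP members then summed to 3029 and 4576 CPM in anti-PHGDH 1 and 2, and to 15739 and 4068 CPM in IgG 1 and 2. Anti-PHGDH 1 thus stayed lowest for HNRNP members, by a smaller margin. In a share of reads, less of an mRNA in a pulldown and more of the other RNAs cannot be told apart. As a mean per antibody, HNRNP members summed to 3167 ± 1430 CPM (SD, n = 2) with anti-PHGDH and 9531 ± 7919 CPM (SD, n = 2) with IgG. SRSF members summed to 1411 ± 43.7 CPM (SD, n = 2) with anti-PHGDH and 3785 ± 3259 CPM (SD, n = 2) with IgG. For both families the difference between the means was smaller than the spread between the IgG libraries.

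**Figure D1:**
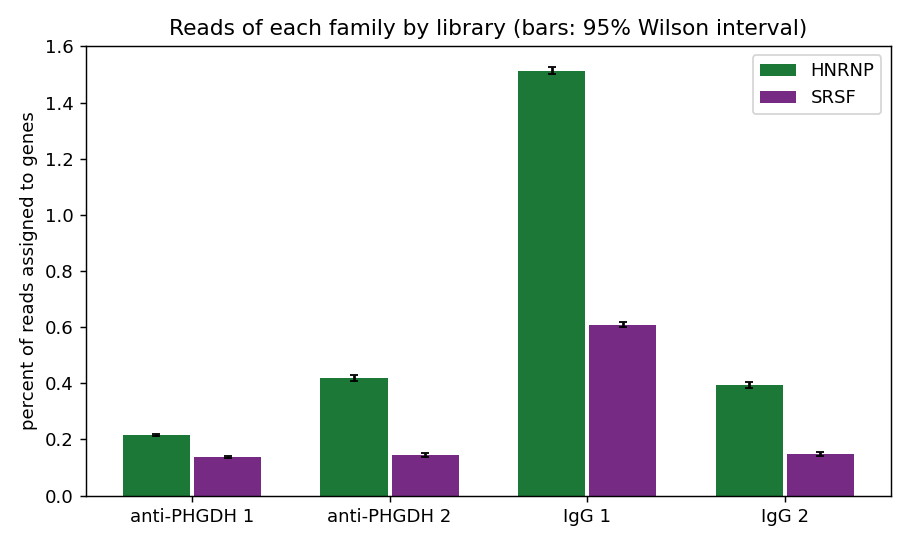
Share of reads assigned to genes (y axis, percent) that fell on HNRNP members (green) and SRSF members (purple) in each of the 4 libraries, with 95% Wilson intervals. The HNRNP share was 1.51% in IgG 1 and lay between 0.216 and 0.418% in the other libraries, and the SRSF share was 0.609% in IgG 1 and between 0.138 and 0.148% elsewhere.

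The HNRNPA and HNRNPB group holds the core packaging proteins. HNRNPA1, a general splicing repressor that also moves between nucleus and cytoplasm, was the most abundant member in every library. It was at 475 and 887 CPM in anti-PHGDH 1 and 2, and at 3774 and 715 CPM in IgG 1 and 2. HNRNPA2B1, its close relative in pre-mRNA packaging and RNA transport, was at 178 and 490 CPM with anti-PHGDH, against 1432 and 460 CPM with IgG. Both mRNAs had the same order of libraries, with IgG 1 highest, the libraries numbered 2 close together and anti-PHGDH 1 lowest. HNRNPA3 and HNRNPAB had this order of extremes too, at 117 and 80.2 CPM in anti-PHGDH 1 and 942 and 701 CPM in IgG 1. HNRNPA0, a small relative, went the other way, at 60.3 and 64.9 CPM with anti-PHGDH, against 26.3 and 48.1 CPM with IgG, so that its groups did not overlap. Of the members tested, HNRNPC, which binds uridine tracts and forms the tetramer around which transcripts are packed, had the smallest ratio of highest to lowest library, at 367 and 425 CPM with anti-PHGDH, against 413 and 412 CPM with IgG.

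HNRNPD (AUF1), which binds AU-rich elements and influences mRNA decay, was at 116 and 266 CPM with anti-PHGDH, against 1901 and 283 CPM with IgG. Its relative HNRNPDL was at 131 and 258 CPM with anti-PHGDH, against 2300.5 and 239.96 CPM with IgG. These neighbouring genes lie at chr4:82352498-82373991 and chr4:82422564-82430462 (GRCh38.p14, RefSeq), and both mRNAs were several times higher in IgG 1 than in any other library. Among the proteins that bind runs of guanines, HNRNPF was at 90.02 and 98.6 CPM with anti-PHGDH, against 2033 and 93.1 CPM with IgG. HNRNPF was therefore level in 3 libraries, with IgG 1 alone far above them. HNRNPH1 was at 40.7 and 87.1 CPM with anti-PHGDH, against 361 and 88.6 CPM with IgG. HNRNPH3, in contrast, was at 30.6 and 72.3 CPM with anti-PHGDH, against 4.90 and 55.1 CPM with IgG, so that of these 3 related mRNAs IgG 1 held 2 at high and 1 at low level.

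HNRNPLL, known for its part in CD45 exon choice in lymphocytes, was near the lower end of the tested members in 3 libraries, at 13.7 and 13.2 CPM with anti-PHGDH, against 16.5 CPM in IgG 2. In IgG 1 it was at 558 CPM, on 2161 reads. HNRNPM, a regulator of exon skipping, showed the reverse, with 87.6 and 361 CPM with anti-PHGDH, 416 CPM in IgG 2 and 0.516 CPM, or 2 reads, in IgG 1. HNRNPUL1, a relative of the scaffold protein HNRNPU, was at 92.1 and 94.5 CPM with anti-PHGDH, 66.5 CPM in IgG 2 and 0.774 CPM, or 3 reads, in IgG 1. The deepest library thus held some members at their highest level and almost lacked others. HNRNPU itself was at 117 and 276 CPM with anti-PHGDH, against 220.3 and 258 CPM with IgG. HNRNPK, which binds cytidine-rich sequence, was at 150.04 and 236 CPM with anti-PHGDH, against 420.05 and 255 CPM with IgG. HNRNPUL2, another relative of HNRNPU, was low, at 2.67 and 8.22 CPM with anti-PHGDH, 19.6 CPM in IgG 2 and 0 in IgG 1.

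SRSF1, SRSF2, SRSF3, SRSF7, SRSF8 and SRSF9 were among the mRNAs that IgG 1 held at high level. SRSF1, the first SR protein described as an alternative splicing factor, was at 122 and 94.5 CPM in anti-PHGDH 1 and 2 and at 1114 and 79.8 CPM in IgG 1 and 2. SRSF2, a marker of nuclear speckles, was at 175 and 139.7 CPM with anti-PHGDH, against 2217 and 125 CPM with IgG. Both were higher in each anti-PHGDH library than in IgG 2, and IgG 1 was far above all of these. Anti-PHGDH 1 held SRSF1 at 1.53 times IgG 2 (exact 95% interval 1.25 to 1.88) and SRSF2 at 1.40 times (1.19 to 1.66). In anti-PHGDH 2 the ratios were 1.19 (0.912 to 1.54) and 1.12 (0.907 to 1.38), and both intervals held 1. SRSF3, the smallest SR protein and an adaptor for mRNA export, was at 332 and 314 CPM with anti-PHGDH, against 1538 and 334 CPM with IgG. SRSF7, its relative with a zinc knuckle, was at 136 and 141 CPM with anti-PHGDH, against 739 and 159 CPM with IgG. For SRSF3 and SRSF7 the groups did not overlap, since IgG 2 was also slightly above both anti-PHGDH libraries. For both mRNAs the exact 95% interval of the ratio of each anti-PHGDH library to IgG 2 held 1. That order therefore lay within counting error. SRSF9, a relative of SRSF1, was at 21.1 and 47.7 CPM with anti-PHGDH, against 191 and 41.8 CPM with IgG. SRSF8 was the least abundant of this group, at 16.3 and 22.2 CPM with anti-PHGDH, against 97.5 and 13.3 CPM with IgG.

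The remaining SR mRNAs included those that IgG 1 nearly or wholly lacked. SRSF11 was the most abundant SRSF member in anti-PHGDH 2 and IgG 2, at 287 and 351 CPM with anti-PHGDH, against 16.8 and 353 CPM with IgG. SRSF10, which turns into a splicing repressor when it loses phosphate in heat shock, was at 113 and 136 CPM with anti-PHGDH, against 1.55 CPM (6 reads) and 186 CPM with IgG. SRSF4 and SRSF5 are close relatives of SRSF6. SRSF4 was at 47.5 and 86.3 CPM with anti-PHGDH, 84.8 CPM in IgG 2 and 0 in IgG 1. SRSF5 was at 46.6 and 68.2 CPM with anti-PHGDH, 61.4 CPM in IgG 2 and 0 in IgG 1. Both mRNAs thus had reads in every library but IgG 1. SRSF6 was instead highest in IgG 1, at 175 CPM, with 75.8 and 34.5 CPM in anti-PHGDH 1 and 2 and 34.2 CPM in IgG 2. SRSF12 was low throughout, at 7.73 and 5.75 CPM with anti-PHGDH, 8.86 CPM in IgG 2 and 0 in IgG 1. A count of 0 in IgG 1 allows up to 3 reads, or 0.774 CPM.

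**Figure D2:**
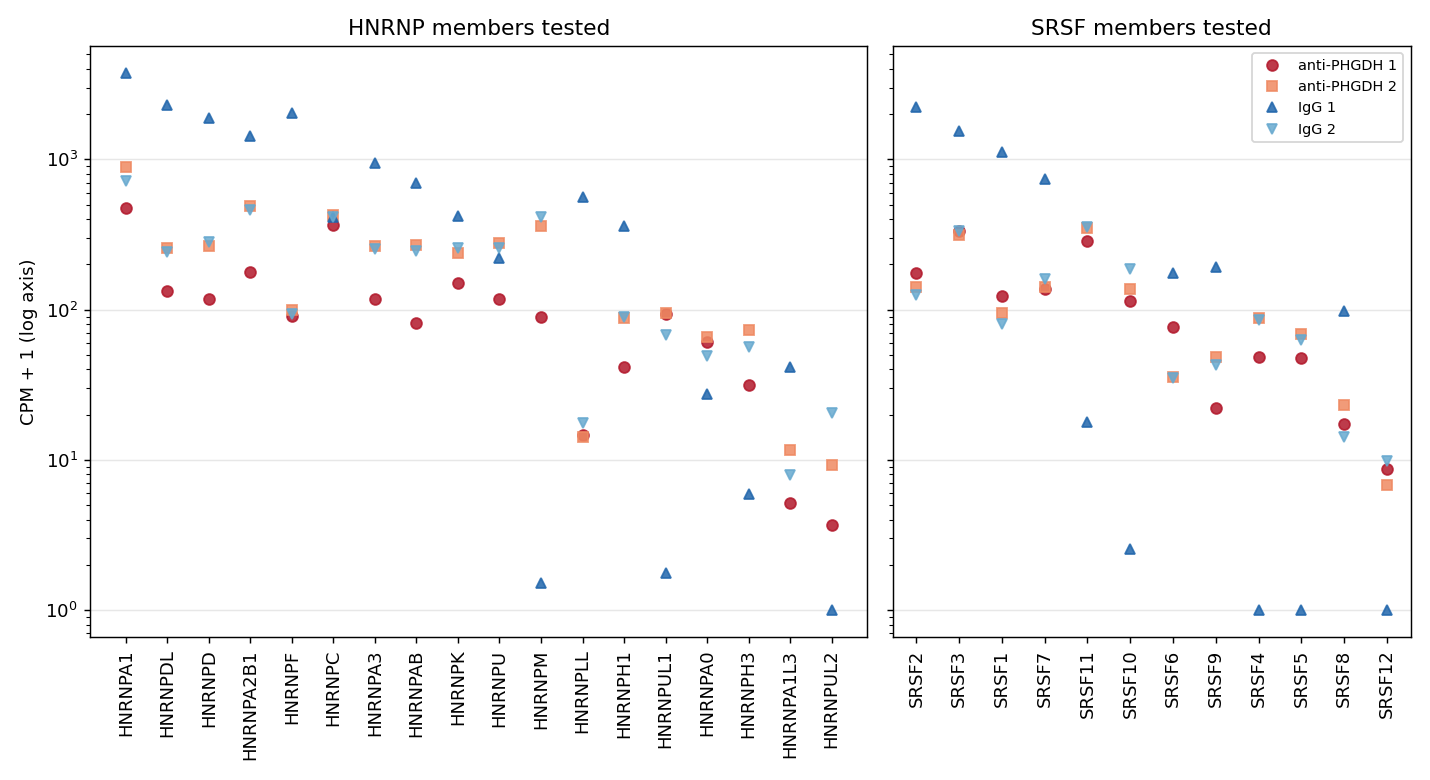
CPM + 1 (y axis, log scale) of the 18 HNRNP and 12 SRSF members tested, ordered within each family by their mean over the 4 libraries; each marker is 1 library. IgG 1 (dark blue triangles) is the highest library for most members, up to 3774 CPM for HNRNPA1, and the lowest for others, such as HNRNPM at 0.516 CPM and SRSF4 at 0, while the other 3 libraries lie closer together.

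Between the antibodies, no member of either family passed the test. limma on log2(CPM + 1), with Benjamini-Hochberg adjustment over all 9524 genes, called 0 of the 18 HNRNP members and 0 of the 12 SRSF members at an adjusted p under 0.05. It called 1 gene higher with anti-PHGDH (0.0105% of those tested, PHGDH itself) and 0 lower (0%). At an unadjusted p under 0.05, limma had 0 members in either direction, against 2.74% of all genes higher and 0% lower. The lowest adjusted p among members was 0.677. The quasi-likelihood test of edgeR, run on recovered reads, called 0 members, with 2 HNRNP members lower at an unadjusted p under 0.05 (HNRNPLL and HNRNPF), where 0.22% of all genes were higher and 1.7% lower. DESeq2 also called 0 members, with HNRNPLL lower at an unadjusted p under 0.05, where 0.934% of all genes were higher and 1.56% lower. With the replicate number as a block, edgeR had 0 members at an unadjusted p under 0.05, against 0.105% of all genes higher and 0% lower.

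The median fold change of each family lay below that of all genes tested, while 6 of the 30 members (HNRNPUL1, HNRNPM, SRSF5, SRSF4, SRSF10 and SRSF11) lay above it. The median log2 fold change (anti-PHGDH over IgG, log2(CPM + 1) scale) was -1.28 over the HNRNP members tested and -0.75 over the SRSF members tested, against 1.92 over all genes tested. These gaps depended on the scaling: after quantile normalization the medians were -1.12, -0.70 and -0.05, and in edgeR -1.80, -1.56 and 0.81, in the same order. In the limma fit the value was below 0 for 13 of 18 HNRNP members and 7 of 12 SRSF members, and for 19.3% of all genes tested. The low end was HNRNPLL (-2.78, SE 2.11; limma adjusted p = 0.677), HNRNPF (-2.20, SE 1.51) and HNRNPD (-2.06, SE 1.38) in one family. In the other it was SRSF2 (-1.75, SE 1.43; limma adjusted p = 0.677), SRSF1 (-1.47, SE 1.54) and SRSF9 (-1.47, SE 1.94). The high end was HNRNPUL1 (3.11, SE 2.19; limma adjusted p = 0.677), HNRNPM (2.83, SE 1.86) and HNRNPH3 (1.40, SE 2.23). For SRSF members it was SRSF5 (2.86, SE 2.42; limma adjusted p = 0.677), SRSF4 (2.81, SE 2.34) and SRSF10 (2.52, SE 1.96). The members at the low end were those abundant in IgG 1, and those at the high end were those scarce there. This scale understates the change of low genes. Apart from that, signs depended on the method, also for genes that were not low. The value of HNRNPM was -0.066 in edgeR, against 2.83 here. After centring on library medians those of HNRNPH3 and HNRNPA0 were -1.09 and -1.70.

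Without IgG 1 the medians moved toward 0, to -0.41 for HNRNP members, -0.14 for SRSF members and 0.14 for all genes tested. HNRNPF was then at 0.02, HNRNPLL at -0.28, SRSF1 at 0.42 and SRSF2 at 0.32. At the other end, HNRNPM was at -1.22, SRSF10 at -0.57, SRSF4 at -0.40 and SRSF5 at -0.12, while HNRNPUL1 was at 0.48. Without IgG 1, limma called 0 members, against 1.04% of all genes tested higher and 0.0315% lower. Fits without either anti-PHGDH library also called 0 members. In each of these fits, as in the fit without IgG 2, 1 arm held a lone library, which was assumed to vary like the pair in the other arm. The fit without IgG 2 called 4 HNRNP members higher and 10 lower, and 5 SRSF members higher and 6 lower, where 74.9% of all genes tested were called higher and 10.8% lower. The difference between the family medians, -0.54 (HNRNP minus SRSF), was 0.16 without anti-PHGDH 1 and -1.23 without anti-PHGDH 2, so its sign rested on anti-PHGDH 1.

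**Figure D3:**
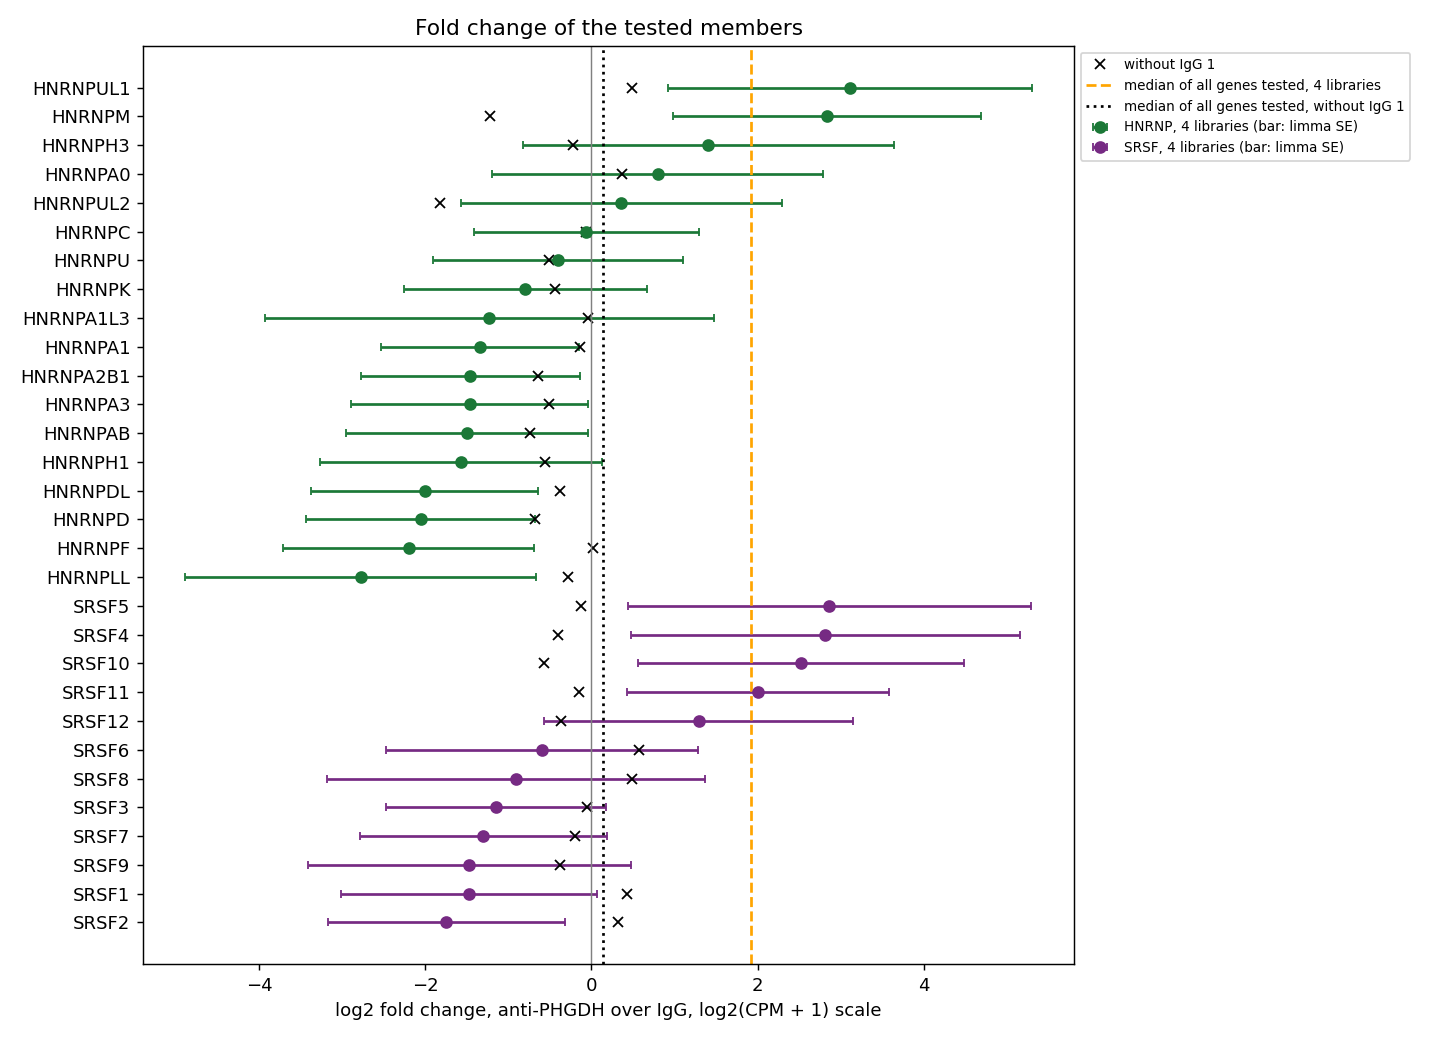
log2 fold change of each tested member (x axis, anti-PHGDH over IgG on the log2(CPM + 1) scale) with its limma SE, HNRNP members in green and SRSF members in purple; black crosses show the value without IgG 1. Dashed and dotted lines mark the medians of all genes tested, 1.92 with 4 libraries and 0.14 without IgG 1; without IgG 1 the members lie between -1.83 (HNRNPUL2) and 0.57 (SRSF6).

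Counted without a variance estimate, 0 members were at least 2-fold higher (on CPM + 1) in each anti-PHGDH library than in each IgG library, against 9.3% of all genes tested. In the lower direction 0 members and 0.084% of all genes met the rule. Groups did not overlap for 8 members. HNRNPA0 and HNRNPUL1 were higher in both anti-PHGDH libraries, 2 of 30 members against 38.3% of all genes tested. HNRNPLL, HNRNPD, HNRNPH1, HNRNPK, SRSF3 and SRSF7 were lower in both, 6 of 30 members against 6.16% of all genes tested. In that direction a gene at 0 in IgG 1 could not be counted, and 1 HNRNP and 3 SRSF members tested were at 0 there, against 61.9% of all genes tested. For each of the 6 lower members the exact 95% interval of anti-PHGDH 2 against IgG 2 held 1. So did that of HNRNPA0, while that of HNRNPUL1 lay above 1. Of the 6, HNRNPLL was furthest apart, at 0.799 times (0.400 to 1.55), and HNRNPH1 closest, at 0.983 times (0.756 to 1.27). The order of the 6 in anti-PHGDH 2 and IgG 2 therefore lay within counting error. For anti-PHGDH 1 against IgG 2 the interval held 1 for HNRNPLL, SRSF3 and SRSF7. It lay below 1 for HNRNPD (0.410 times, 0.357 to 0.471), HNRNPH1 (0.459 times, 0.360 to 0.585) and HNRNPK (0.589 times, 0.516 to 0.674). Mitochondrial reads lower the CPM of anti-PHGDH 1, and the overlap of groups was not recomputed without them.

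Anti-PHGDH 2 and IgG 2 held nearly the same levels of these mRNAs. The median log2 difference (anti-PHGDH 2 minus IgG 2) was 0.09 over the HNRNP members, 0.02 over the SRSF members and 0.18 over all genes tested. Within 2-fold of each other were 17 of 18 HNRNP members and 12 of 12 SRSF members, against 85.5% of all genes tested. The exception was HNRNPUL2, 2-fold lower in anti-PHGDH 2 as were 1.97% of all genes tested, at 8.22 CPM (10 reads) and 19.6 CPM (31 reads). By exact 95% intervals of the ratio, which cover counting error only, 14 HNRNP and 11 SRSF members held a ratio of 1. HNRNPA1 was 1.24 times as high with anti-PHGDH (interval 1.14 to 1.35) and HNRNPUL1 1.42 times (1.08 to 1.87). HNRNPM was at 0.868 times (0.767 to 0.980), SRSF10 at 0.736 times (0.604 to 0.893) and HNRNPUL2 at 0.419 times (0.183 to 0.877). These intervals compare 2 libraries and not the antibodies. Anti-PHGDH 1 was further from IgG 2, with 16 of 18 HNRNP and 8 of 12 SRSF members lower in it, against 44.4% of all genes tested. At least 2-fold lower were 8 HNRNP and 0 SRSF members, against 14% of all genes, and SRSF6 was 2-fold higher, as were 24.4% of all genes. With CPM recomputed without the mitochondrially encoded genes, 13 HNRNP and 3 SRSF members were lower in anti-PHGDH 1 than in IgG 2, against 28.9% of all other genes tested. On those values 3 HNRNP members were 2-fold lower, against 7.78% of genes, and 2 SRSF members were 2-fold higher, as were 3401 of 9509 genes. The median difference of the SRSF members turned from -0.20 to 0.22, and that of the HNRNP members was -0.85 before and -0.41 after.

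The anti-PHGDH replicates held most HNRNP members at different levels. Between anti-PHGDH 1 and 2, 17 of 18 HNRNP members were lower in the first, against 51.3% of all genes tested, and 10 were at least 2-fold lower, against 14.4%. Their median log2 difference was -1.12, against -0.03 for all genes tested. HNRNPM had the lowest ratio, 0.243 (interval 0.209 to 0.282), then HNRNPAB, 0.301 (0.255 to 0.355). HNRNPF, HNRNPUL1, HNRNPA0 and HNRNPLL held a ratio of 1 within their intervals. Of the SRSF members 7 of 12 were lower in anti-PHGDH 1 and 1 was 2-fold lower, SRSF9 with a ratio of 0.442 (0.308 to 0.637). SRSF6 was 2-fold higher, with a ratio of 2.19 (1.58 to 3.12), where 13.5% of all genes were 2-fold higher. The median for SRSF members was -0.16. With CPM recomputed without the mitochondrially encoded genes, the medians were -0.77 for HNRNP members, 0.20 for SRSF members and 0.31 for all other genes tested, and 13 HNRNP and 4 SRSF members were lower in anti-PHGDH 1, against 36.9% of those genes. At least 2-fold lower were then 4 HNRNP and 0 SRSF members, against 7.93%.

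The IgG replicates differed in both families. In IgG 1, 10 of 18 HNRNP members and 7 of 12 SRSF members were at least 2-fold higher than in IgG 2, against 13.8% of all genes tested. In the lower direction 4 HNRNP and 5 SRSF members were 2-fold apart, against 77.6% of all genes tested. The largest ratios of IgG 1 to IgG 2 were 33.9 for HNRNPLL (interval 23.1 to 52.0), 21.8 for HNRNPF (18.6 to 25.9), 17.8 for SRSF2 (15.4 to 20.6) and 14.0 for SRSF1 (11.7 to 16.8). HNRNPC alone held a ratio of 1, at 1.00 (0.914 to 1.10), among the 17 HNRNP and 9 SRSF members with reads in both. Because abundant genes were less often at 0 in IgG 1, the members were also set against genes of like level, with level classes chosen after the data were seen. Among genes at 100 to 300 CPM in IgG 2, 23.8% were at 0 and 24.3% 2-fold higher in IgG 1. Of the 6 HNRNP and 3 SRSF members in that class, 0 were at 0, and 4 and 2 were 2-fold higher. Among genes at 30 to 100 CPM, 49.2% were at 0 and 18.8% 2-fold higher, against 0 and 2 of 5 HNRNP members and 2 and 3 of 5 SRSF members.

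**Figure D4:**
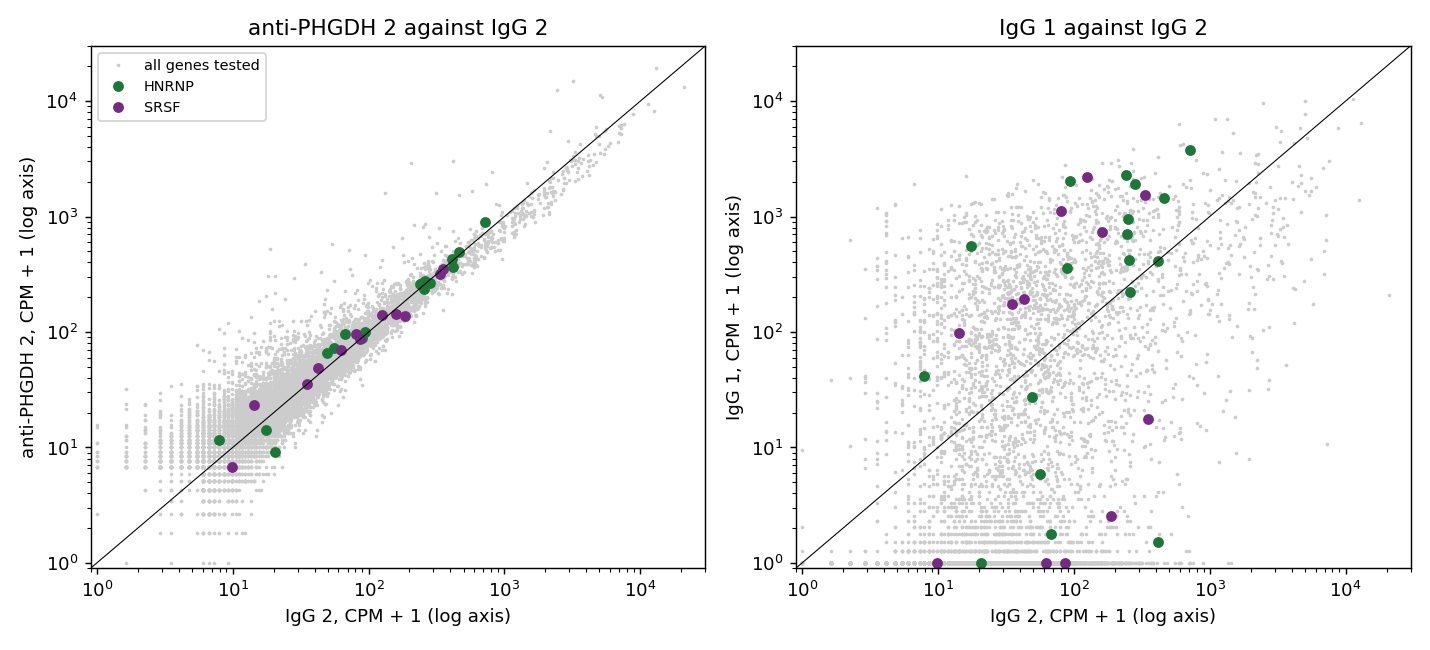
CPM + 1 on log axes for all genes tested (grey), HNRNP members (green) and SRSF members (purple), with anti-PHGDH 2 (left) and IgG 1 (right) plotted against IgG 2; the line marks equal values. On the left 17 of 18 HNRNP and 12 of 12 SRSF members are within 2-fold of each other, and on the right 10 and 7 are at least 2-fold higher in IgG 1 while 4 and 5 are at least 2-fold lower.

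The gene starts behind the mRNAs at either extreme in IgG 1 are shown for a single-start gene of each kind, as the 100 bases before the annotated start, from RefSeq (GRCh38.p14). HNRNPD and SRSF3 were the most abundant such members among those higher in IgG 1 than in IgG 2, and HNRNPM and SRSF10 had the lowest ratio of IgG 1 to IgG 2 among those with reads in IgG 1. Capitals mark TATAAA or CCAAT, on either strand, and GGGCGG was searched in the same way.
HNRNPD (chr4:82373992-82374091, minus strand): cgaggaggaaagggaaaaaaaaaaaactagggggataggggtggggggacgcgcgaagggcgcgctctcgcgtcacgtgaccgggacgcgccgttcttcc
SRSF3 (chr6:36594262-36594361, plus strand): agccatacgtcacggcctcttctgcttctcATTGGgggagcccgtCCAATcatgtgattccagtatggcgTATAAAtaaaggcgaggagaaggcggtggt
HNRNPM (chr19:8444875-8444974, plus strand): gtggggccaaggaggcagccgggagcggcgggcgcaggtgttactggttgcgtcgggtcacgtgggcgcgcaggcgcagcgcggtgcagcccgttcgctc
SRSF10 (chr1:23980328-23980427, minus strand): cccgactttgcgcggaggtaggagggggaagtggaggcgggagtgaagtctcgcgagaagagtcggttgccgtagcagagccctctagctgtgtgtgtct
Over windows from 250 bases before to 50 after the start, CCAAT occurred in 15 of 26 windows of 16 HNRNP members tested (57.7%), 3 of 14 windows of 11 SRSF members (21.4%) and 34.6% of all 35116 windows. GGGCGG occurred in 69.2, 42.9 and 45.0% of them, and TATAAA in 11.5, 21.4 and 11.5%. These matches describe the letters in the windows only.

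Of the HNRNP members, 9 stayed under the level needed for testing. HNRNPL, HNRNPCL1, HNRNPCL2, HNRNPCL3, HNRNPCL4 and the read-through symbol HNRNPUL2-BSCL2 were listed at 0 in all 4 libraries. HNRNPR was listed at 0 except for 1 read in IgG 2. HNRNPH2 had 2 reads in anti-PHGDH 1 and 1 read in anti-PHGDH 2, and its span overlaps that of the read-through gene RPL36A-HNRNPH2, also listed at 0 in every library. HNRNPL, which binds CA repeats, and HNRNPR are expressed in most cell types, and PRPF8, the core protein of the catalytic spliceosome, was likewise listed at 0 in every library, so a listed 0 need not be a measured absence. HNRNPA1L2, an intronless relative of HNRNPA1, had at most 2.97 CPM. HNRNPA1L3 was tested, at 4.16 and 10.7 CPM with anti-PHGDH, against 40.5 and 6.97 CPM with IgG.

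Near-identical copies make some of these values uncertain, because how reads matching several places were counted is not given in the sources used here. The tables list 69 HNRNPA1 pseudogene symbols, which summed to 11.3, 13.2, 37.9 and 27.2 CPM in anti-PHGDH 1, anti-PHGDH 2, IgG 1 and IgG 2. All 77 HNRNP pseudogene symbols together came to between 0.252 and 0.773% of the summed CPM of the HNRNP members. The 10 SRSF pseudogene symbols came to at most 0.128% of the SRSF sum. The values of HNRNPA1, HNRNPA1L2 and HNRNPA1L3, and of SRSF2 and its retrotransposed relative SRSF8, are uncertain for this reason. The span of HNRNPUL2 overlaps HNRNPUL2-BSCL2, and those of HNRNPAB, HNRNPH3, HNRNPK, SRSF2, SRSF4, SRSF9 and SRSF12 overlap another protein-coding gene. The divergent transcript HNRNPD-DT, left out of the family, was at 4.93 CPM or less.

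Other splicing genes were counted in lists by their role, and 0 of the genes tested in any list passed the limma test after adjustment over all genes. Among 13 tested RNA-binding proteins of hnRNP type with other names, the median log2 fold change was 0.65 and 5 were below 0. The most abundant were PCBP2, a poly-cytidine binding protein at 1503 and 1585 CPM with anti-PHGDH, against 342 and 132 CPM with IgG (log2 fold change 2.86, limma adjusted p = 0.677), and RBMX, at 257 and 250.7 CPM with anti-PHGDH, against 2739 and 213 CPM with IgG. PCBP2 and PTBP2 were 2-fold higher in every pair, a rule met by 9.3% of all genes. Among 19 tested SR-related proteins the median was 0.19, and 8 were below 0. The speckle scaffold SON was at 939 and 556 CPM with anti-PHGDH, against 230 and 517 CPM with IgG, and SRRM1 at 302 and 414 CPM with anti-PHGDH, against 1120.3 and 294 CPM with IgG. Only PCBP2 and, of the SR-related proteins, RNPS1 (637, 268, 0 and 198 CPM in anti-PHGDH 1 and 2 and IgG 1 and 2) had an unadjusted limma p under 0.05 in these lists.

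Of 6 tested kinases that phosphorylate SR proteins or splicing factors, 4 were at 0 in IgG 1, near the 61.9% of all genes tested, and the median was 2.35, against 1.92 for all genes. SRPK1, a kinase of the SR domain, was at 233 and 157 CPM with anti-PHGDH, against 1.03 and 203 CPM with IgG, and PRPF4B was at 76.1 and 59.2 CPM with anti-PHGDH, against 0 and 57.0 CPM with IgG. The 3 transportins, which carry hnRNP and SR proteins into the nucleus, were also at 0 in IgG 1, with a median of 2.65. TNPO1 was at 41.0 and 66.6 CPM with anti-PHGDH, against 71.5 CPM in IgG 2, and TNPO3 at 32.1, 35.3 and 51.3 CPM in the same libraries. All of these kinases and transportins except SRPK1 were below 100 CPM in IgG 2, and many genes at such levels were at 0 in IgG 1 (75.7% at 0 to 30 CPM and 49.2% at 30 to 100 CPM). Medians were 0.21 for the 10 U1 and Sm core proteins, led by SNRPD2 (1411, 4344, 1795 and 6018 CPM in anti-PHGDH 1 and 2 and IgG 1 and 2) and SNRPG (418, 1639, 375 and 1963 CPM). In that list SNRPB (723, 722, 1.55 and 686 CPM in the same order) had an unadjusted limma p under 0.05. The median was 1.00 for 14 proteins of U2 and the 3′ splice site, led by SF1 (219.9, 105, 1100 and 92.4 CPM) and SF3B5 (178, 408, 122 and 541 CPM). SF3A1, SF3A2 and SF3B4 of that list were 2-fold higher in every pair, 3 of 14 against 9.3% of all genes tested. SF3A2 was low, at 0 and 3.80 CPM in IgG 1 and 2. SF3B4 differed between the anti-PHGDH libraries, at 269 and 26.3 CPM in anti-PHGDH 1 and 2. For 12 tri-snRNP proteins the median was 0.13, with SNRNP40 at 269, 158, 1366 and 135 CPM and SNRNP200 at 37.1, 84.7, 435 and 94.3 CPM.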

How the data were processed

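RIP-seq was performed on HEK293T cells, with 2 anti-PHGDH and 2 IgG libraries. Groups and replicate numbers came from the sample titles. Per the submitters' processing notes, STAR 2.5.4b, featureCounts and hg38 were used. The annotation, strand use and the treatment of multi-mapped and duplicate reads are not given in the sources used here. The authors deposited 1 table of CPM per library, printed to 3 decimals. Values were whole multiples of 1 read for 99.98 to 100% of values above 0 (tolerance 0.00198 reads or less), which gave the totals. One read was worth 0.297 and 0.822 CPM in anti-PHGDH 1 and 2, and 0.258 and 0.633 CPM in IgG 1 and 2. A count of 0 allows 3 reads, or 0.774 to 2.47 CPM.

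Testing used log2(CPM + 1) in limma 3.58.1 under R 4.3.3. The fit had an intensity trend and no covariates, and tests were two-sided with Benjamini-Hochberg adjustment over genes at 5 CPM or more in at least 2 libraries, and a threshold of 0.05. limma estimated infinite prior degrees of freedom, and the SE follows the trend and not a gene's own spread. edgeR 4.0.16, DESeq2 1.42.0, other scalings, filters, pseudocounts, a replicate block and leaving out each library were alternatives. With 2 libraries per group an exact permutation test cannot go below 0.333, so none was run. The fit was also run on simulated counts that held no library like IgG 1, so that run does not show how the fit performs here. Ratios of 2 libraries carry exact (Clopper-Pearson) intervals and shares carry Wilson intervals, both at 95% and for counting error only. Lists are given by counts and medians beside all genes tested. The members, the lists and the level classes were chosen with earlier results of these data known. Every member may be named. In full were given, per family, the 6 with the highest mean CPM and the 3 highest and 3 lowest fold changes, and, per list, the 2 with the highest mean CPM. Other members given by library, and list genes named for the 2-fold rule or at 0, were named after their values were seen. Gene spans and promoter windows came from RefSeq tables (GRCh38.p14), in which HNRNPA1, SRSF2, HNRNPCL3 and HNRNPA1L3 had no window. Protein sequences were not used here.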

Additional observations from a re-analysis of the deposited data

How the results depend on the processing

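The number of genes called higher (1) was 11 at a pseudocount of 0.1 CPM, 6 with no filter, 3 when the filter was lowered to 1 CPM and 4 with the replicate block. It was 0 after centring on library medians, with no trend, in DESeq2 and in edgeR, also when edgeR had the replicate block, and ran from 0 to 7129 without 1 library. The number called lower (0) ran from 0 to 1032 without 1 library. The deviations of same-numbered libraries had r = 0.0058 over 9524 genes. Since IgG 1 was at 0 for 61.9% of these genes, this value cannot show whether the numbers mark pairs. The main fit did not take them as pairs, and with the block 0 members were called. The median of the HNRNP members (-1.28) was -3.78 after centring, which moved the median of all genes to -0.57, and ran from -2.26 to -0.41 without 1 library. That of the SRSF members (-0.75) was -3.25 after centring, -1.56 in edgeR and -1.32 in DESeq2, and ran from -2.0003 to -0.14. The median of all genes ran from 0.14 to 3.60, and the difference between families from -1.23 to 0.16. One HNRNP member, HNRNPUL2, was 2-fold lower in every pair after centring. Without 1 library, from 0 to 5 HNRNP and 0 to 5 SRSF members were 2-fold higher, and from 0 to 10 and 0 to 7 were 2-fold lower. The mean SRSF sum with anti-PHGDH (1411 CPM) was 1759 CPM without mitochondrial genes. Of 536 fold changes of single members under alternatives, 481 kept direction and side of the threshold and 30 changed sign. The rest passed the threshold, all in the fit without IgG 2, which left IgG 1 alone in its arm. The sign changed for HNRNPC (0.58) after quantile normalization and 0.19 without mitochondrial genes, for HNRNPM in edgeR (-0.066), and for HNRNPA0 (-1.70) and SRSF11 (-0.49) after centring. It changed after centring and quantile normalization for HNRNPH3 (-1.09 and -0.42) and SRSF12 (-1.21 and -0.61). For HNRNPUL2 it changed in those (-2.14 and -1.30), at a pseudocount of 5 CPM (-0.14), in edgeR (-1.02) and in DESeq2 (-0.82). Without 1 library 16 further signs changed. The ranges were -4.42 to 0.018 (HNRNPF), -0.17 to 0.043 (HNRNPC), -1.02 to 0.21 (HNRNPU), -1.22 to 6.88 (HNRNPM), -0.22 to 3.03 (HNRNPH3) and -1.83 to 2.54 (HNRNPUL2). For SRSF members they were -3.82 to 0.32 (SRSF2), -3.36 to 0.42 (SRSF1), -0.15 to 4.16 (SRSF11), -0.57 to 5.62 (SRSF10), -1.75 to 0.57 (SRSF6), -0.40 to 6.02 (SRSF4), -0.12 to 5.84 (SRSF5), -2.30 to 0.49 (SRSF8) and -0.36 to 2.94 (SRSF12). Depth limits the members under 10 CPM, where 1 read is up to 0.822 CPM. The cause of these shifts was not tested.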
